A study of Drosophila melanogaster with 8 samples.

Results

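The synaptic partner immunoglobulin genes are the genes of the dpr, DIP, beat and side families of Drosophila. Members were taken by symbol from the RefSeq gene table of Release 6: dpr followed by a digit, DIP- (without DIP1 and DIP2), beat-, side and side-. This gave 54 of the 13922 protein-coding genes on the chromosome arms X, 2L, 2R, 3L, 3R and 4, with 21 dpr, 11 DIP, 14 beat and 8 side genes. The rule itself uses symbols and no measured value. Dpn binding had been profiled by DamID in 8 samples of larval brains from the third instar, in 4 conditions with 2 biological replicates each. In the medulla NB experiment (NanoDam), larvae carrying Dpn-GFP from a BAC also carried TaDaM-traNLS-vhhGFP, tub-GAL80ts and eyR16F10-GAL4, and 40 brains were used per replicate. Their controls had the same driver and NanoDam construct in the w1118 background without the GFP tag, again with 40 brains. In the pan-NB experiment, Dam-Dpn (FlyORF-TaDa-Dpn) was driven by wor-GAL4 with tub-GAL80ts in all NBs, with 30 brains per replicate, and the controls expressed Dam alone under the same driver, with 30 brains. All larvae were raised at 18°C and shifted to 29°C, where GAL80ts no longer holds back GAL4. eyR16F10-GAL4 is also active in medulla neurons, so the driver by itself does not limit the NanoDam profile to NBs. The files hold binding and no expression, so the labelled cell types could not be checked against markers.

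Dpn is a bHLH transcription factor of the Hes type that keeps NBs in their stem cell state. It was long classed as a repressor, but the paper cites earlier work in which its targets went both up and down. The genes studied here act later, in neurons. Dpr and DIP proteins are cell-surface proteins with immunoglobulin domains, and particular Dprs bind particular DIPs across the contact between neurons, which in the optic lobe marks matched partners in the medulla layers. Beat proteins work as receptors for Side proteins in the same lock-and-key manner. Side itself lies along the path of motor axons and steers them through Beat-Ia.

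The medulla NB list held 3474 peaks and the pan-NB list 4282 peaks on the 6 arms. A peak was assigned to a gene when it lay within 1 kb of it. Each list is the average of both replicates of a fusion over its control, so there is no replicate error, no test over samples was possible, and the values below describe the lists. The lists differ both in technique and in the cells profiled, and these cannot be told apart.

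A Dpn peak lay within 1 kb of 13 of the 54 genes in the medulla NB list and of 5 in the pan-NB list. In the medulla NB list this was 24.1% of the members, beside 23.1% of all protein-coding genes. In the pan-NB list it was 9.26% of the members, beside 26.7% of all protein-coding genes. Both lists had a peak at 3 members, DIP-alpha, beat-Ib and side-V, which is 5.56%, against 16.5% of protein-coding genes. A peak in the medulla NB list only was found at 10 members (18.5%, against 6.62% of protein-coding genes) and a peak in the pan-NB list only at 2 members (3.70%, against 10.2%). The remaining 39 genes had no peak in either list (72.2%, against 66.7%). Across the whole group the medulla NB peaks covered 20040 bp within 1 kb of the genes and the pan-NB peaks 7394 bp, a medulla share of 73.0% of the summed length. Over all protein-coding genes that share was 45.8%. Of the 15 members with any peak, 13 had the greater covered length with medulla NB peaks and 2 with pan-NB peaks. Among all 4634 protein-coding genes with any peak, 38.9% had the greater length with medulla NB peaks.

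The medulla NB peaks at the members had higher FDRs than is usual in their list. The median FDR that the authors' peak caller gave was 0.00242 for the 13 medulla NB peaks at the members and 4.84e-05 for that whole list. For the 5 pan-NB peaks at the members it was 2.68e-06, and 1.77e-06 for that list. With peaks of an FDR below 0.001, 3 members kept a medulla NB peak (side-V, DIP-lambda and DIP-alpha) and 4 kept a pan-NB peak (side-V, DIP-alpha, beat-Ib and dpr2), so the order of the 2 counts turned. At that threshold 15.1% of all protein-coding genes had a medulla NB peak and 19.9% a pan-NB peak. The medulla share of covered length was then 50.2% at the members, against 42.9% over all protein-coding genes. By score, the 13 medulla NB peaks had a median rank of 2124 in their list and 5 of them lay in its higher-scoring part of 50%. The 5 pan-NB peaks had a median rank of 1566 in theirs, and 3 lay in its higher-scoring part of 50%.

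**Figure D1:**
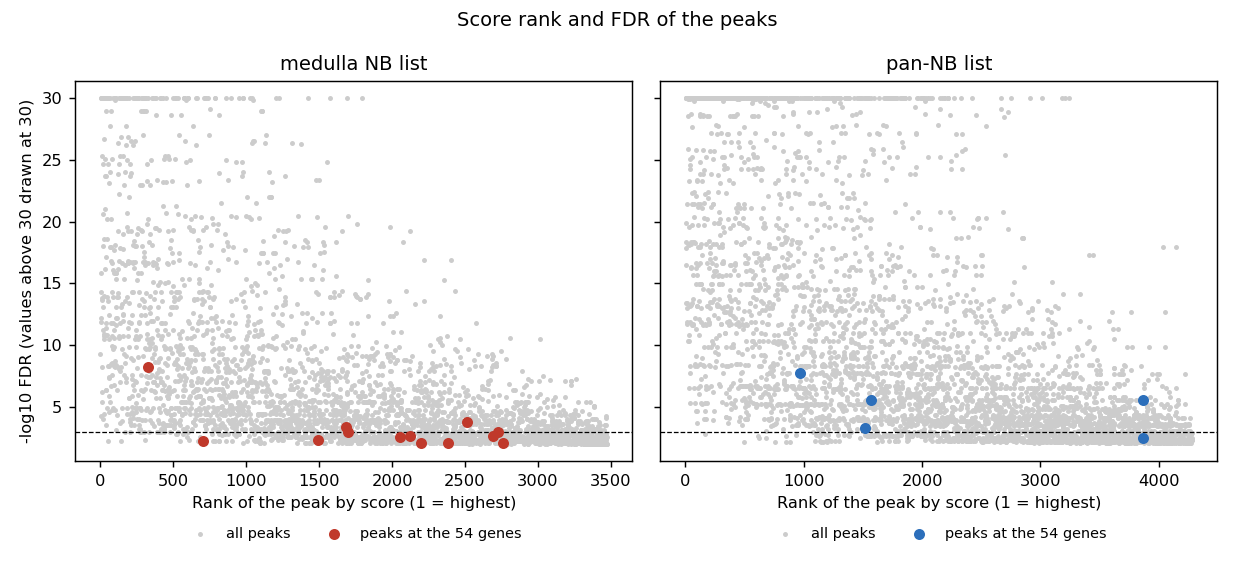
Rank of each peak by score (x axis, 1 is the highest) against −log10 of its FDR (y axis) in the medulla NB list (left) and the pan-NB list (right). Grey points are all peaks, coloured points the 13 medulla NB and 5 pan-NB peaks at the 54 genes, and the dashed line marks an FDR of 0.001, above which 3 medulla NB and 4 pan-NB points lie.

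Most of these genes are long, and long genes have more room for a peak. The median length was 36.2 kb for the members and 2.16 kb for all protein-coding genes, and 36 members (66.7%) reached 20 kb, against 7.27% of protein-coding genes. Among genes of 20 kb or more, a medulla NB peak was found at 10 of 36 members (27.8%) and at 47.5% of 1012 protein-coding genes. A pan-NB peak was found at 5 of these 36 members (13.9%) and at 54.2% of the protein-coding genes. In the longest class, 50 kb or more, the counts were 7 of 17 members in the medulla NB list (41.2%, against 54.4% of protein-coding genes) and 2 of 17 in the pan-NB list (11.8%, against 60.9%). Of the 14 members from 5 to 20 kb, 2 had a medulla NB peak (14.3%, against 33.7%) and 0 had a pan-NB peak, against 39.9% of protein-coding genes. Of the 19 members from 20 to 50 kb, 3 had a peak in each list (15.8%, against 44.5% in the medulla NB list and 51.3% in the pan-NB list). Under 5 kb there were only 4 members, of which 1 had a medulla NB peak (against 18.2% of protein-coding genes). A pan-NB peak was found at 0 of these 4, against 20.9%.

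Where a peak was found, it was a single one. None of the 13 members with a medulla NB peak and none of the 5 with a pan-NB peak had a second peak in the same list, whereas 22.3% of the protein-coding genes with a medulla NB peak and 23.1% of those with a pan-NB peak had at least 2. Members of 20 kb or more had 4.18 medulla NB peaks per Mb of gene and 1 kb flanks, against 21.9 for protein-coding genes of that length. In the pan-NB list they had 2.09 peaks per Mb, against 26.03. Peaks covered 0.667% of this length in the medulla NB list, against 3.70% for protein-coding genes, and 0.309% in the pan-NB list, against 4.35%. The median covered length was 1712 bp at members with a medulla NB peak, against 1314 bp at all protein-coding genes with one, and 992 bp at members with a pan-NB peak, against 1341 bp.

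**Figure D2:**
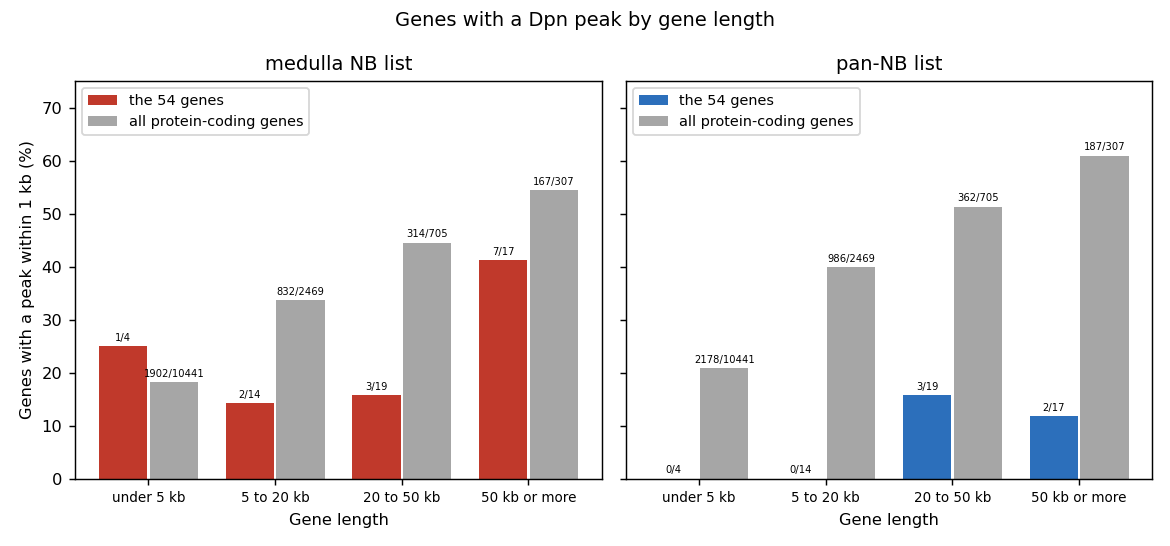
Share of genes with a peak within 1 kb (y axis, %) in 4 classes of gene length (x axis), for the 54 genes (coloured) and all protein-coding genes (grey), in the medulla NB list (left) and the pan-NB list (right). Above each bar stands the number of genes with a peak over the number in the class. At 20 to 50 kb, 3 of 19 members have a peak in each list, against 44.5% and 51.3% of protein-coding genes. In all classes but the shortest of the medulla NB list the members lie below the grey bar.

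The peaks at DIP-alpha, beat-Ib and side-V were the ones present in both lists, and each lay well inside its gene. DIP-alpha, which encodes the receptor for Dpr6 and Dpr10, had a medulla NB peak on X from 3545057 to 3546812 (rank 2515, FDR 0.000170, 1756 bp). The pan-NB peak there ran from 3545286 to 3546615 (rank 1514, FDR 0.000563, 1330 bp) and lay wholly within the medulla NB peak. Both midpoints were 25.7 kb from the nearer end of the 64.4 kb gene, and both peaks overlapped lncRNA:CR34335. At side-V, a member of the Side family on 2R, the medulla NB peak ran from 23189905 to 23190775 (rank 327, FDR 6.22e-09, 871 bp). The pan-NB peak ran from 23190149 to 23190775 (rank 972, FDR 1.86e-08, 627 bp), with the same end coordinate and no other gene within 1 kb. These were the highest-scoring peaks at any member in each list. At beat-Ib, a paralog of beat-Ia on 2L, the medulla NB peak ran from 15910338 to 15912873 (rank 2729, FDR 0.00101, 2536 bp) and the pan-NB peak from 15911715 to 15912706 (rank 1566, FDR 2.68e-06, 992 bp). The pan-NB peak took up 39.1% of the wider medulla NB peak, and both overlapped lncRNA:CR44867 and lncRNA:CR44868, so these peaks cannot be given to beat-Ib alone. All 3 pan-NB peaks were thus contained in a medulla NB peak. Among the 13 medulla NB peaks at members the shared ones made up 23.1%, against 69.6% of the whole list, and among the 5 pan-NB peaks 60%, against 55.1%. With an FDR below 0.001 the shared ones made up 66.7% of the 3 medulla NB peaks left at members, against 71.1% of those left at all protein-coding genes.

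**Figure D3:**
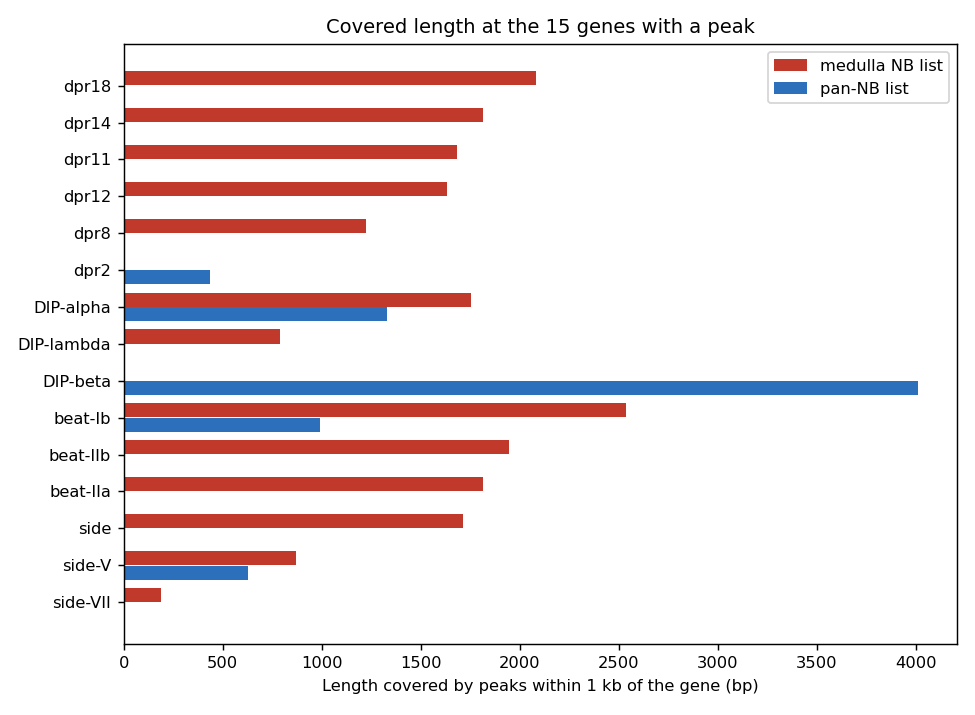
Length covered by peaks within 1 kb of the gene (x axis, bp) for the 15 genes with a peak, with the medulla NB list above the pan-NB list for each gene. DIP-alpha, beat-Ib and side-V have a bar in both lists, DIP-beta and dpr2 in the pan-NB list only, and the other 10 in the medulla NB list only.

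Of the DIP genes, which encode the partners of Dprs, 2 of 11 (18.2%) had a peak in each list. Among all protein-coding genes, 23.1% had a medulla NB peak and 26.7% a pan-NB peak. DIP-lambda, at 379 kb the longest member, had 1 medulla NB peak on 2R from 498477 to 499263 (rank 1683, FDR 0.000455, 787 bp), 172 kb from the nearer gene end. The nearest pan-NB peak was 256 kb away from it. DIP-beta, whose protein binds several Dprs, had 1 pan-NB peak inside the gene on X from 21442911 to 21446921 (rank 3866, FDR 0.00346). At 4011 bp this was the largest covered length at any member, and the nearest medulla NB peak was 67.2 kb from that peak. DIP-gamma, DIP-delta, DIP-epsilon, DIP-zeta, DIP-eta, DIP-theta, DIP-iota and DIP-kappa had no peak in either list.

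Of the 21 dpr genes, 5 had a medulla NB peak (23.8%, against 23.1% of all protein-coding genes). A pan-NB peak was found at 1 (4.76%, against 26.7%), and none had both, against 16.5%. dpr12, whose product pairs with DIP-delta, had the highest-ranking medulla NB peak of the family. It was 3222 bp long, on 2R from 5802121 to 5805342 (rank 707, FDR 0.00584) across an end of the gene. Its midpoint lay 0.98 kb outside dpr12, and 1631 bp of it fell within 1 kb of the gene. A pan-NB peak from 5796906 to 5799914 ended 2.21 kb short of that peak and lay 4.80 kb from dpr12, outside the 1 kb limit. dpr8 on X also had its peak across a gene end, from 14320755 to 14322447 (rank 1495, FDR 0.00503), and the nearest pan-NB peak was 52.9 kb away. The midpoint of the dpr8 peak lay 0.625 kb outside the gene, and 1222 of its 1693 bp fell within 1 kb. dpr14, a short gene of 4.58 kb on X, had a medulla NB peak from 7907472 to 7909809 (rank 1701, FDR 0.00110) that reached over its end into the neighbouring gene spidey. The midpoint of that peak lay 0.35 kb outside dpr14. dpr18, also on X and 6.57 kb long, had a 2081 bp peak wholly inside it from 16064849 to 16066929 (rank 2054, FDR 0.00271). At dpr11, which is expressed by a class of R7 photoreceptors and binds DIP-gamma, the peak ran from 6535575 to 6537257 on 3R (rank 2197, FDR 0.00807) inside the gene, 7.25 kb from its nearer end. The peaks at dpr8, dpr11, dpr14 and dpr18 lay from 14.1 to 119.6 kb from the nearest pan-NB peak. dpr2 on 2L had the only pan-NB peak of the family, from 10964720 to 10969079 (rank 3866, FDR 2.68e-06). It lay 567 bp beside dpr2, overlapped Tmem214, and only 434 bp of its 4360 bp fell within 1 kb of dpr2. The other 15 dpr genes, dpr1, dpr3, dpr4, dpr5, dpr6, dpr7, dpr9, dpr10, dpr13, dpr15, dpr16, dpr17, dpr19, dpr20 and dpr21, had no peak.

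In the side family, 3 of 8 genes (37.5%) had a medulla NB peak, against 23.1% of all protein-coding genes. A pan-NB peak was found at 1, side-V (12.5%, against 26.7%). side had a medulla NB peak of 1712 bp across its end on 3R from 27436483 to 27438194 (rank 2124, FDR 0.00242), and no pan-NB peak within 74.1 kb of the gene. CG44290 lay within 1 kb of the same peak. The peak at side-VII, from 9740793 to 9741551 on 3R (rank 2387, FDR 0.00807), overlapped the neighbouring gene Pnn and lay 814 bp beside side-VII, with 187 bp inside the window. side-II, side-III, side-IV, side-VI and side-VIII had no peak. Among the 14 beat genes, which encode the receptors for Side proteins, 3 had a medulla NB peak (21.4%, against 23.1%). A pan-NB peak was found at 1, beat-Ib (7.14%, against 26.7%). The neighbouring genes beat-IIa and beat-IIb on 3R each had 1 medulla NB peak well inside the gene. They ran from 17343670 to 17345482 (rank 2762, FDR 0.00835, 1813 bp) at beat-IIa and from 17256009 to 17257954 (rank 2690, FDR 0.00242, 1946 bp) at beat-IIb. The nearest pan-NB peak was 45.4 kb from the peak at beat-IIa and 133 kb from that at beat-IIb. beat-Ia, beat-Ic, beat-IIIa, beat-IIIb, beat-IIIc, beat-IV, beat-Va, beat-Vb, beat-Vc, beat-VI and beat-VII had no peak in either list.

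**Figure D4:**
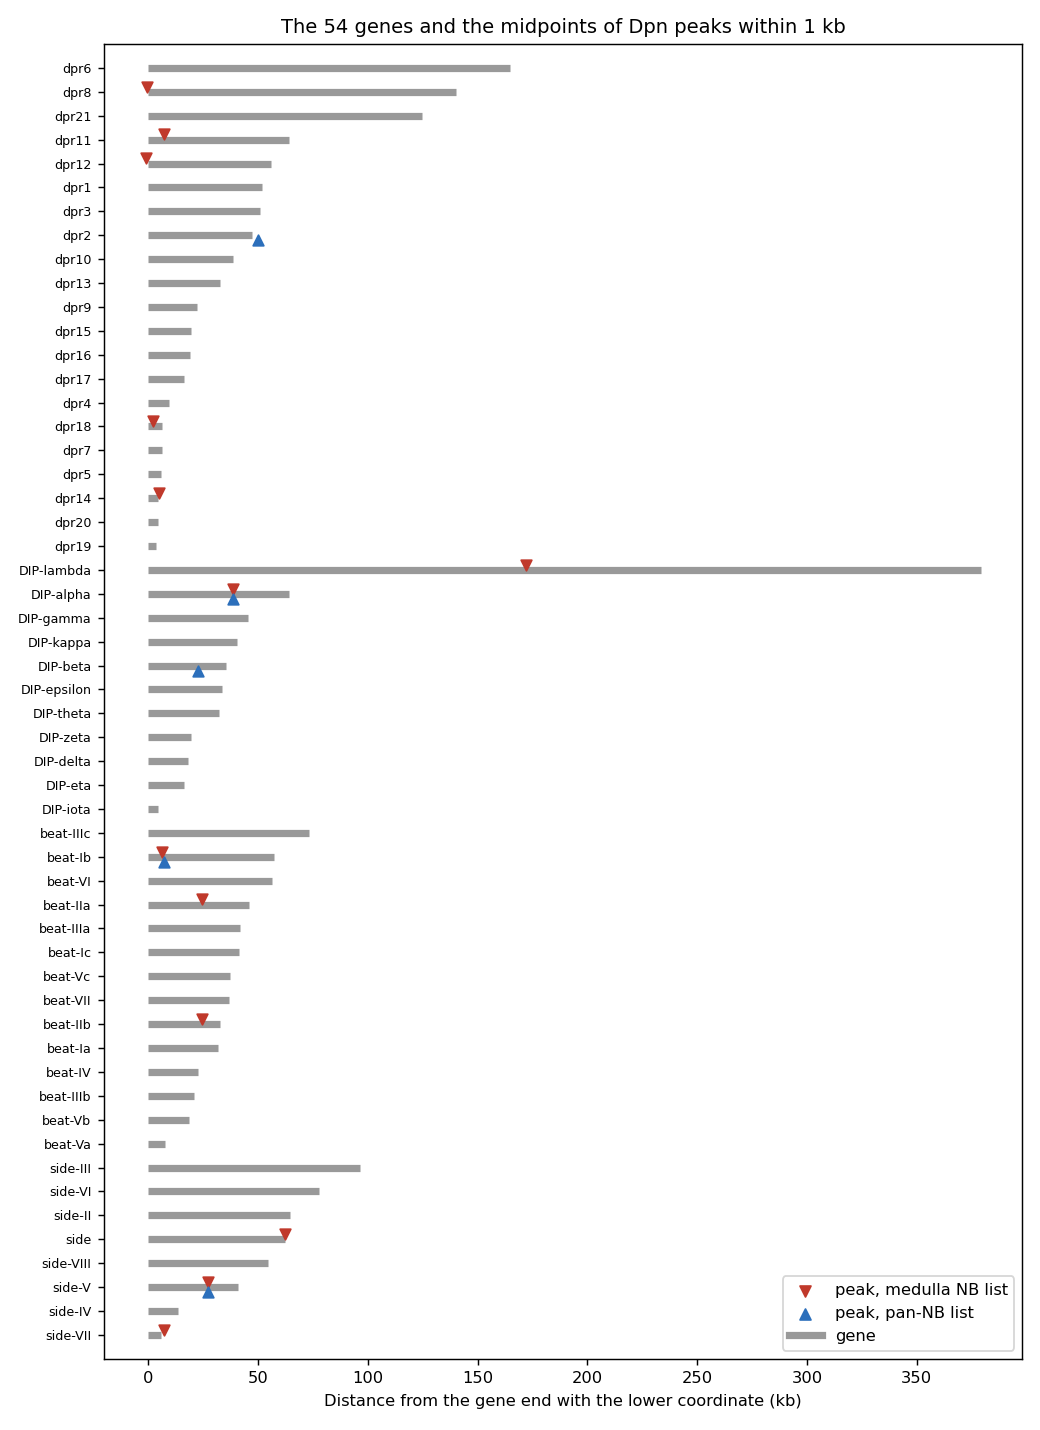
The 54 genes drawn to scale by family as grey bars from the gene end with the lower coordinate (x axis, kb), with the midpoint of each peak within 1 kb. Red triangles above a bar are the 13 medulla NB peaks and blue triangles below a bar the 5 pan-NB peaks, and 39 bars carry no triangle.

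By place, 8 of the 13 medulla NB peaks lay inside the member, 4 crossed one of its ends (dpr8, dpr12, dpr14 and side) and 1 lay beside it (side-VII). Of the 5 pan-NB peaks, 4 lay inside and 1 beside the gene (dpr2). The gene table gives no strand, start sites or exons, so the end at which a peak lay could not be called a promoter, nor an inside peak exonic or intronic. Another gene lay within 1 kb of 5 of the 13 medulla NB peaks and of 3 of the 5 pan-NB peaks.

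Most of the genes without a peak were not close misses. The nearest medulla NB peak lay a median of 66.8 kb from the 41 members that had none, against 16.8 kb for all protein-coding genes without one and 20.6 kb for those of 20 kb or more. In the pan-NB list the median was 44.0 kb for 49 members, against 13.9 kb and 17.7 kb. A medulla NB peak lay within 5 kb of 2 of the 41, and a pan-NB peak within 5 kb of 5 of the 49. With 5 kb as the limit for all genes, 27.8% of members had a medulla NB peak, against 37.6% of protein-coding genes. For pan-NB peaks it was 18.5%, against 43.0%. The closest was side-IV, with a medulla NB peak 3.96 kb and a pan-NB peak 1.57 kb away. dpr6 had a pan-NB peak 3.20 kb away, and DIP-iota a peak of each list 3.65 kb away. Pan-NB peaks also lay 4.31 kb from beat-IIIc and 4.80 kb from dpr12, which had a medulla NB peak. The surroundings were sparse as well. In the 50 kb on each side of the gene, beyond the 1 kb window, 57.4% of members had no medulla NB peak, against 16.8% of protein-coding genes, and 50% had no pan-NB peak, against 11.3%. At 20 kb or more the shares of protein-coding genes were 18.4% and 13.5%. The members themselves are part of the protein-coding genes, and neighbouring members share flanks.

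The longest genes without any peak came from 3 of the families. dpr6, which encodes a DIP-alpha ligand, spans 165 kb and had no peak in either list, as did 3 of the 18 protein-coding genes at least as long, itself included. dpr21 spans 125 kb, and the peak-free stretch of both lists around it was 458 kb. side-III spans 96.7 kb, side-VI 77.8 kb and beat-IIIc 73.1 kb, and among the 161 protein-coding genes at least as long as beat-IIIc, 27.3% had no peak. Several members that lie in a row were empty together. beat-IIIa, beat-IIIb and beat-IIIc lie within a span of 290 kb that also holds 12 other protein-coding genes, with 0 peaks in both lists. dpr6 and dpr10 lie within 213 kb with 9 other protein-coding genes and 0 peaks. The spans of DIP-eta and DIP-theta (58.8 kb), dpr4 and dpr5 (45.0 kb) and dpr15 and dpr17 (65.7 kb) likewise held 0 peaks. All of these spans end 1 kb beyond the outer genes. Outside them, a pan-NB peak lay 4.31 kb from beat-IIIc and another 3.20 kb from dpr6. How often other rows of genes were as empty was not counted. In the span of beat-Ia, beat-Ib and beat-Ic, 179 kb with 11 other protein-coding genes, the peaks at beat-Ib were the only ones. The span of beat-Va, beat-Vb and beat-Vc (191 kb) held 1 peak of each list, farther than 1 kb from all 3 genes.

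Binding was also compared within 11 partner pairs taken from general knowledge of the families, in which side-VI, DIP-alpha and side-IV recur. None of these 11 pairs had a peak at both genes, in either list. The pairs are a selection: side was paired with beat-Ia alone, and DIP-beta was in no pair. Both side and beat-Ib, the paralog of beat-Ia, had a medulla NB peak. With 24.1% of members bound in the medulla NB list and 9.26% in the pan-NB list, few pairs could have had both, and nothing is read from this count. DIP-alpha had a peak in both lists, while its ligand genes dpr6 and dpr10 had none. dpr11, dpr12 and side had a medulla NB peak, while DIP-gamma, DIP-delta and beat-Ia had none. beat-IIa and beat-IIb had a medulla NB peak, while side-IV had none within 1 kb. side-II with beat-VI, and side-VI with beat-Va, beat-Vb and beat-Vc, had no peak on either side.

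A chosen set of 27 other recognition genes was bound far more often than the members. It was drawn up with earlier results of these data known, so it does not stand for recognition genes in general. The set held Dscams, teneurins, cadherin, fasciclins and the irre cell recognition genes, among others. A peak was found at 20 (74.1%) in the medulla NB list and at 21 (77.8%) in the pan-NB list, and 17 (63.0%) had one in both. Over all protein-coding genes these shares were 23.1%, 26.7% and 16.5%. The median length of the 27 genes was 51.0 kb, longer than that of the members. Of the 21 that reached 20 kb, 17 had a medulla NB peak and 18 a pan-NB peak. The counts were 10 and 5 for the 36 members of that length, and the shares 47.5% and 54.2% for protein-coding genes. An FDR below 0.001 was added for the 27 genes after the data were seen. With it, 18 of the 27 still had a medulla NB peak and 19 a pan-NB peak. kirre, which encodes an adhesion protein of the irre module, had 10 medulla NB peaks covering 20501 bp and 8 pan-NB peaks covering 13642 bp. Ten-m, a teneurin gene, had 4 medulla NB peaks with 8782 bp and 3 pan-NB peaks with 5414 bp. klg and Lac, which encode immunoglobulin proteins related to the DIPs, had peaks in both lists, with 994 bp in the medulla NB list and 1291 bp in the pan-NB list at klg, and 3065 bp and 4335 bp at Lac. cDIP, which encodes a secreted binding partner of Dprs and DIPs, had only a pan-NB peak, with 223 bp. bdl, tutl and wrapper had no peak. The difference between the lists of genes was not tested.

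**Figure D5:**
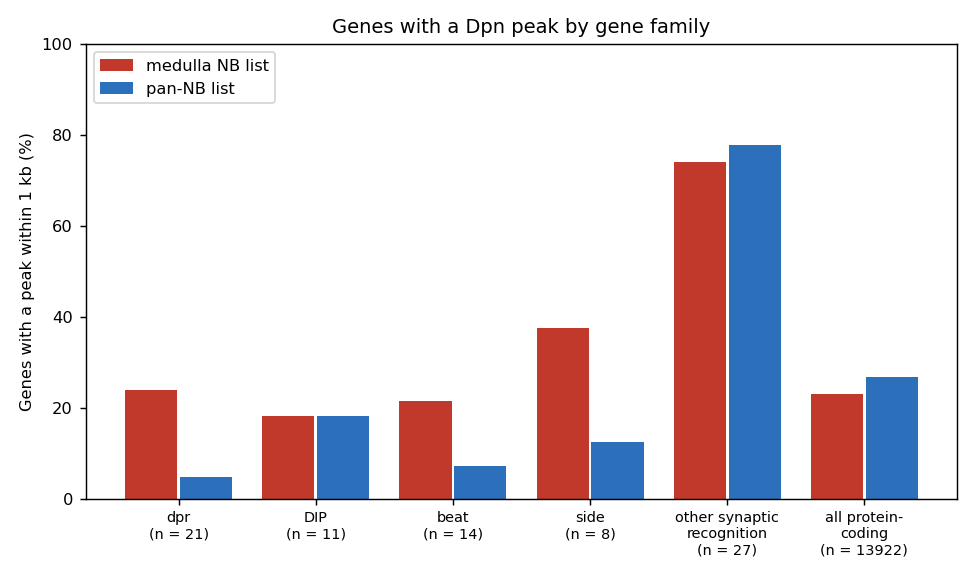
Share of genes with a peak within 1 kb (y axis, %) in the dpr, DIP, beat and side families, in the 27 other recognition genes and in all protein-coding genes, with the medulla NB list left of the pan-NB list. The pan-NB bars are 4.76% for dpr, 18.2% for DIP, 7.14% for beat and 12.5% for side. They are 77.8% for the other recognition genes and 26.7% for all protein-coding genes.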

How the data were processed

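Reads were aligned by the authors with damidseq_pipeline at default options, replicates were averaged, and peaks were called with find_peaks (min-quant 0.8, FDR below 0.01). The methods describe calls per replicate, whereas the names of the deposited lists give the average, which is how they are read here. For versions and the genome build, none is given in the sources used here. Each deposited list gives position, peak score and FDR. The authors' score has no stated scale and only ranked or filtered peaks within a list. The study gives a sequencing aim per sample, but the lists hold no reads, so the depth behind a peak is unknown and no counting interval is given. Of the pan-NB peaks, 7 that lay off the 6 arms were left out. Gene names and extents came from the RefSeq table of Release 6, and peaks on 3R reach 32078821. Its gene coordinates are not printed. No genome or sequence table was used here, so the planned motif search was not run and no sequence is shown. Overlap means at least 1 bp. Windows were summed per gene, so overlapping genes count the same bp more than once.

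All members are named, in full where bound. Members, lists and partner pairs were chosen with earlier results of these data known, and the 50 kb flanks, the runs of neighbours (gaps up to 200 kb) and the longest unbound genes after values were seen. Alternatives were distances of 0 and 5 kb, the higher-scoring 50%, an FDR below 0.001, the 1500 highest-scoring peaks, joining of peaks under 500 bp apart, and 50% overlap. Overlap routines were tested on simulated data. Analyses ran in scipy 1.17.1, pandas 2.3.3 and numpy 2.4.6 under Python 3.11.15, with figures from matplotlib 3.10.9.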

Additional observations from a re-analysis of the deposited data

How the results depend on the processing

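No paired analysis was possible because each list is the average of both replicates. The alternatives gave 72 values, of which 25 moved by the limits used (1.5 times for counts and lengths and for the medulla share, a 95% binomial interval for other shares). That interval is wide with so few members and peaks, so a share inside it is not shown to be stable. The medulla share of covered length ran from 50.2% to 85.6%, and the share of members with a pan-NB peak from 1.85% to 18.5%. None of the 25 was at 0 kb, with joined peaks or with 50% overlap. At 5 kb, 10 members (18.5%) had a pan-NB peak, against 43.0% of all protein-coding genes. A peak in both lists was found at 6 members, against 4126 of the 13922 protein-coding genes. The covered length at the members in the pan-NB list was 15685 bp. With the higher-scoring 50% of each list, 5 members (9.26%, against 9.17%) had a medulla NB peak and 3 (5.56%, against 10.6%) a pan-NB peak. A peak in both lists was found at 1 member, against 949 protein-coding genes. Covered lengths were 6326 bp in the medulla NB list and 2949 bp in the pan-NB list. The greater length was with medulla NB peaks at 5 members, against 669 protein-coding genes. At an FDR below 0.001, 3 members (5.56%, against 15.1%) had a medulla NB peak. Covered lengths were then 3414 bp in the medulla NB list and 3383 bp in the pan-NB list. Of the medulla NB peaks 66.7% were shared (71.1% over all protein-coding genes). The greater length was with medulla NB peaks at 3 members, against 1194 protein-coding genes. With the 1500 highest-scoring peaks of each list, 3 members (5.56%) had a medulla NB peak, 1 (1.85%) a pan-NB peak and 1 both. Covered lengths were 3724 bp in the medulla NB list and 627 bp in the pan-NB list. The shared share of pan-NB peaks was 100%, against 63.2% over all protein-coding genes, but it rests on 1 peak, at side-V. The greater length was with medulla NB peaks at 3 members, against 645 protein-coding genes. There, 7.54% of all protein-coding genes had a medulla NB peak and 6.96% a pan-NB peak, and 675 genes had both. Of the 27 other recognition genes, 16 had a medulla NB peak and 15 a pan-NB peak. The pan-NB share of members lay below that of all protein-coding genes in each setting run. The medulla NB share lay above it at 0 kb, at 1 kb and, narrowly, with the higher-scoring 50% (9.26%, against 9.17%), and below it at 5 kb, with an FDR below 0.001 and with the 1500 highest-scoring peaks. The cause was not tested. Depth per sample and replicate spread limit all of these counts and are not given by the lists.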

Other observations

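Counts of members with a peak are given by chromosome arm, a split made after the values were seen and not tested. On X, 4 of 5 members had a medulla NB peak (dpr8, dpr14, dpr18 and DIP-alpha) and 2 a pan-NB peak (DIP-alpha and DIP-beta). Of all protein-coding genes on X, 28.1% had a medulla NB peak and 31.3% a pan-NB peak. On 3R, 5 of 21 members had a medulla NB peak and 0 a pan-NB peak, against 23.7% and 25.9% of the protein-coding genes there. On 2L, 1 of 16 had a medulla NB peak and 2 a pan-NB peak, against 18.2% and 22.8%. On 2R, 3 of 7 had a medulla NB peak and 1 a pan-NB peak, against 22.7% and 27.1%. The 4 members on 3L (dpr6, dpr10, dpr20 and DIP-delta) and dpr7 on chromosome 4 had none, where 624 of 2739 protein-coding genes on 3L had a medulla NB peak and 740 a pan-NB peak, and 36 and 28 of 80 on chromosome 4.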
